A study of Mus musculus with 4 samples.

Results

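The 9 genes described here encode the collagens and nidogens of the basement membrane, and were taken by symbol from the 33954 genes of the count matrices. They are Col4a1 (ENSMUSG00000031502), Col4a2 (ENSMUSG00000031503), Col4a3 (ENSMUSG00000079465), Col4a4 (ENSMUSG00000067158), Col4a5 (ENSMUSG00000031274), Col4a6 (ENSMUSG00000031273), Col15a1 (ENSMUSG00000028339), Nid1 (ENSMUSG00000005397) and Nid2 (ENSMUSG00000021806). All 9 were found. Basement membranes are thin matrix sheets beneath endothelium and around cardiomyocytes, pericytes and smooth muscle cells. Collagen IV chains assemble as trimers into their network, the common trimer being built from the Col4a1 and Col4a2 chains and others from the Col4a3, Col4a4, Col4a5 and Col4a6 chains. Nidogens link the laminin and collagen networks, and collagen XV, the product of Col15a1, ties the sheet to the fibrillar matrix around it.

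Nuclei were isolated from mouse heart and sequenced in 4 libraries, 1 per group: hearts with the Vegfa Q150X allele 3 days after myocardial infarction (Q150X 3dpMI), wild-type hearts 3 days after infarction (WT 3dpMI), uninjured Q150X hearts (Q150X homeostasis) and uninjured wild-type hearts (WT homeostasis). The allele was made by CRISPR/Cas9 editing and models a human stop-gained variant of VEGFA, the endothelial growth factor; zygosity is marked by the letters "ho" alone. The labels used here give no age, no sham operation and no number of hearts per library.

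The libraries held 8125 nuclei in Q150X 3dpMI, 9157 in WT 3dpMI, 6544 in Q150X homeostasis and 4390 in WT homeostasis, with median depths after filtering of 2671, 2029, 968 and 921 unique molecular identifiers (UMIs, counts of captured RNA molecules). Pairs of libraries shared 39 to 117 barcodes. Vegfa in cardiomyocytes measured 699.6 CPM in Q150X 3dpMI and 594 CPM in WT 3dpMI, against 925 CPM in Q150X homeostasis and 716 CPM in WT homeostasis; over all kept nuclei it measured 133 CPM in Q150X 3dpMI and 210.1 CPM in WT 3dpMI, against 374 CPM in Q150X homeostasis and 427 CPM in WT homeostasis. The transcript level does not test for a stop codon and so does not check the genotype labels. UMIs were summed over the nuclei of a cell class and scaled to the total of that class (CPM). With 1 library per group no test was possible: intervals in parentheses are 95% and cover counting error only, and differences between groups cannot be told apart from differences between single libraries. A ratio of at least 2-fold is called past 2-fold, for genes whose UMIs in the 2 libraries came to 50 or more, and the share of all such genes past it is given as the background. Members below that minimum were not counted, and one can reach it through its higher library alone, so the counts describe the members and support nothing further. Class sums do not separate fewer expressing nuclei from less RNA per nucleus. Levels are compared for a gene between classes and not between genes, because CPM is not scaled to length.

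Collagen IV genes lie in head-to-head pairs. Promoter windows are shown for the 2 pairs in which both genes had one, because the starts of such a pair can share their upstream sequence. Each window, from RefSeq in build GRCm38.p6, runs 5′ to 3′ on the gene's strand from 250 bases before the start to 50 bases after it, with GC boxes (GGGCGG, or CCGCCC on the other strand) and CCAAT boxes (CCAAT, or ATTGG) in capitals. Col4a1 lies at chr8:11312777-11313076 (minus strand), Col4a2 at chr8:11312555-11312854 (plus strand), Col4a5 at chrX:141475169-141475468 (plus strand) and Col4a6 at chrX:141474027-141474326 (minus strand).
Col4a1: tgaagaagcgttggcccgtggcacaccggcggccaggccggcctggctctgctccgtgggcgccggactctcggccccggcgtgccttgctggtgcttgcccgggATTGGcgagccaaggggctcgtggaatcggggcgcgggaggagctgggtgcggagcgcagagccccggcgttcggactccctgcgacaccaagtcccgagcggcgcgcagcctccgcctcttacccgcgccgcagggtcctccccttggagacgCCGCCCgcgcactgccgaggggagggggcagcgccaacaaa
Col4a2: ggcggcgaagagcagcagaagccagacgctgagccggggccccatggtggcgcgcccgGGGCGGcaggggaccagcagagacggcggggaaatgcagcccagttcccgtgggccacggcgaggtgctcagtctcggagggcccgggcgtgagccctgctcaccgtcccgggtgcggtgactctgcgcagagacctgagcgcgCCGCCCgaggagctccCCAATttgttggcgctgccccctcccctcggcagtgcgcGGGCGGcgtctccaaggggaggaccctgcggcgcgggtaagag
Col4a5: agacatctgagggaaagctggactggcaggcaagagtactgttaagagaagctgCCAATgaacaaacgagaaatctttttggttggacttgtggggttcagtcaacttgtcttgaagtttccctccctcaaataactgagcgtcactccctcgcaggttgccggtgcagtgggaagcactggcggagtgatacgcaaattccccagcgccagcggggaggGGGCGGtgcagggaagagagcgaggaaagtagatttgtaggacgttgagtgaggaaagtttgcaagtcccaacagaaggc
Col4a6: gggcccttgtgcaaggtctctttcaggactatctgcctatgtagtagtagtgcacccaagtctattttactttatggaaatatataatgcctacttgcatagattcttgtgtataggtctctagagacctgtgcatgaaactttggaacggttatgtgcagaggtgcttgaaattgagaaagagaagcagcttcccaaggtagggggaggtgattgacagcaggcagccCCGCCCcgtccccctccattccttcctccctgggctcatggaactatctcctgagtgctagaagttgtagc
The starts of Col4a1 and Col4a2 lay 21 bases apart, so that their windows shared 78 bases and their first 22 transcribed bases overlapped, whereas the starts of Col4a5 and Col4a6 lay 1343 bases apart. G and C made up 74.0% of the Col4a1 window, 73.7% of the Col4a2 window, 52.7% of the Col4a5 window and 48.3% of the Col4a6 window, with a median of 52.7% over 32851 windows of this length. GC boxes numbered 1 in Col4a1, 3 in Col4a2, 1 in Col4a5 and 1 in Col4a6, and 35.7% of all windows held one. CCAAT boxes numbered 1, 1, 1 and 0 in the same order, and 37.4% of all windows held one. A match is a run of letters and not a shown binding site. Windows were found for 7 of the 9 genes, all but Col4a3 and Nid2. No source used here says whether reads were counted by strand, and reads from the overlap of Col4a1 and Col4a2 cannot be assigned with certainty.

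Across 35 sums of a class in a library, Pearson's r on log CPM was 0.92 for Col4a1 and Col4a2, 0.81 for Col4a3 and Col4a4, and 0.54 for Col4a5 and Col4a6. These are descriptions, since sums from a library share its depth and free RNA. By the same measure the gene most like Col4a1 was Col4a2 (0.92), followed by Map1b (0.87), and the gene most like Col4a3 was Col4a4 (0.81). Col4a4 was most like Greb1l (0.85) and Kcnt2 (0.83), with Col4a3 (0.81) next. The other members were most like Angpt1 (0.88) for Col4a5, Xkr4 (0.81) for Col4a6, Col5a1 (0.84) for Col15a1, Tshz3 (0.95) for Nid1 and Tmem184b (0.90) for Nid2.

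The genes had distinct homes in the heart. Col4a1 and Col4a2 were highest in vascular endothelium in all 4 libraries, Col4a3 and Col4a4 in endocardium, and Col4a5 in cardiomyocytes, while Col15a1 and Nid1 were highest in fibroblasts of uninjured hearts. Classes were named from marker genes, and the 9 members and 4 lists of other basement membrane genes were left out of the clustering. Fibroblast nuclei numbered 1866 in Q150X 3dpMI and 1845 in WT 3dpMI, against 2953 in Q150X homeostasis and 1478 in WT homeostasis, and vascular endothelial nuclei 1452 in Q150X 3dpMI and 2581 in WT 3dpMI, against 733 in Q150X homeostasis and 551 in WT homeostasis. Cardiomyocyte nuclei numbered 381 in Q150X 3dpMI and 1154 in WT 3dpMI, against 836 in Q150X homeostasis and 1564 in WT homeostasis, pericyte nuclei 368 in Q150X 3dpMI and 708 in WT 3dpMI, against 772 in Q150X homeostasis and 246 in WT homeostasis, and endocardial nuclei 140 in Q150X 3dpMI and 251 in WT 3dpMI, against 231 in Q150X homeostasis and 94 in WT homeostasis.

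**Figure D1:**
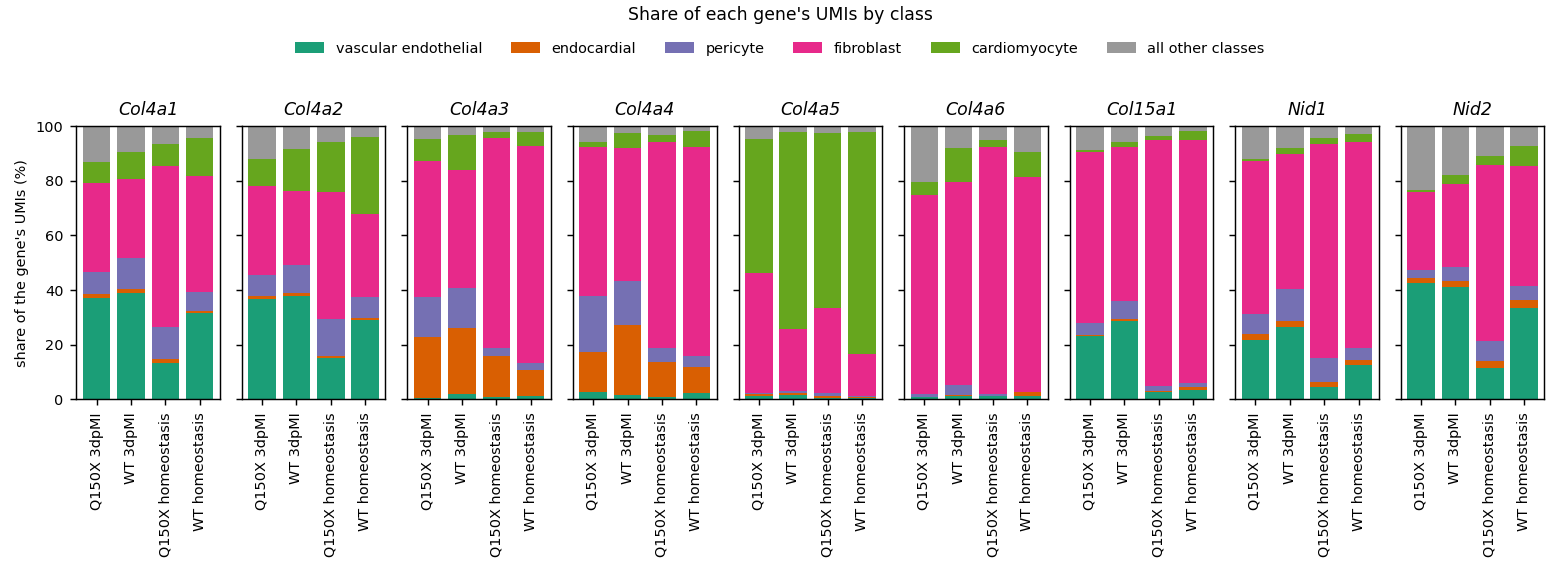
Share of each gene's UMIs by class (y axis, %) in the 4 libraries (x axis), over all kept nuclei. Fibroblasts held 89.9% of Col15a1 UMIs in Q150X homeostasis and cardiomyocytes 81.1% of Col4a5 UMIs in WT homeostasis, and the shares also move with the number of nuclei caught per class.

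Col4a1 and Col4a2, the chains of the common trimer, were highest in vascular endothelium, whose interval did not overlap that of the next class in any library. Col4a1 there measured 1933 CPM (1888 to 1979) in Q150X 3dpMI and 1562 CPM (1525 to 1600.0) in WT 3dpMI, against 937 CPM (858 to 1020.2) in Q150X homeostasis and 1078 CPM (994 to 1169) in WT homeostasis. Pericytes, which share a basement membrane with capillary endothelium, held 1504 CPM (1430.2 to 1581) in Q150X 3dpMI and 1169 CPM (1117 to 1222) in WT 3dpMI, against 671 CPM (612 to 735) in Q150X homeostasis and 577 CPM (481 to 686) in WT homeostasis. In both classes the libraries taken after infarction lay above the uninjured ones. Col4a2 in vascular endothelium measured 1626 CPM in Q150X 3dpMI and 1398 CPM in WT 3dpMI, against 1017 CPM in Q150X homeostasis and 1084 CPM in WT homeostasis. Fibroblasts held Col4a1 at 609 CPM in Q150X 3dpMI and 669.5 CPM in WT 3dpMI, against 703 CPM in Q150X homeostasis and 604 CPM in WT homeostasis, with no such split. Immune nuclei, which should hold little of it, had 258 CPM in Q150X 3dpMI and 274 CPM in WT 3dpMI, against 350.4 CPM in Q150X homeostasis and 166 CPM in WT homeostasis, and in Q150X 3dpMI the Col4a1 interval of fibroblasts overlapped that of T or NK nuclei (545 CPM from 84 nuclei). The part of free RNA in the lower classes was not tested.

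Shares of nuclei ordered the libraries as these levels did in vascular endothelium, but not in immune nuclei. With each nucleus thinned to 500 UMIs, a Col4a1 UMI was found in vascular endothelium in 53.8% in Q150X 3dpMI and 43.0% in WT 3dpMI, against 34.5% in Q150X homeostasis and 37.2% in WT homeostasis. Immune nuclei gave 12.6% in Q150X 3dpMI and 13.9% in WT 3dpMI, against 10.5% in Q150X homeostasis and 9.57% in WT homeostasis. Endothelium thus lay above immune nuclei in each library, while endocardium, at 18.6% in Q150X 3dpMI and 18.3% in WT 3dpMI, against 12.6% in Q150X homeostasis and 12.8% in WT homeostasis, lay closer to them. Without thinning the endothelial shares were 82.0% in Q150X 3dpMI and 70.4% in WT 3dpMI, against 45.2% in Q150X homeostasis and 54.8% in WT homeostasis, and the immune shares 35.8% in Q150X 3dpMI and 36.1% in WT 3dpMI, against 22.3% in Q150X homeostasis and 12.2% in WT homeostasis. The median depth of endothelium was 1944 UMIs in Q150X 3dpMI and 1245 UMIs in WT 3dpMI, against 668 UMIs in Q150X homeostasis and 807 UMIs in WT homeostasis, and that of immune nuclei 2232 UMIs in Q150X 3dpMI and 2054 UMIs in WT 3dpMI, against 763 UMIs in Q150X homeostasis and 698 UMIs in WT homeostasis.

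Col4a3 and Col4a4 encode chains best known from the kidney's filtration barrier. In the heart both were highest in endocardium, the inner lining of the chambers, and next highest in fibroblasts of uninjured hearts. Col4a3 in endocardium measured 128 CPM (95.4 to 168) in Q150X 3dpMI and 214 CPM (176 to 257) in WT 3dpMI, against 940.3 CPM (816 to 1078) in Q150X homeostasis and 543 CPM (389.7 to 737) in WT homeostasis. In fibroblasts it measured 11.1 CPM (9.17 to 13.4) in Q150X 3dpMI and 27.0 CPM (23.4 to 31.0) in WT 3dpMI, against 325 CPM (305 to 345) in Q150X homeostasis and 256 CPM (229.9 to 285) in WT homeostasis. In both classes the intervals of the libraries after infarction lay wholly below those of the uninjured libraries. Col4a4 in endocardium measured 161 CPM in Q150X 3dpMI and 350.2 CPM in WT 3dpMI, against 1009 CPM in Q150X homeostasis and 649 CPM in WT homeostasis. In fibroblasts Col4a4 measured 23.2 CPM in Q150X 3dpMI and 46.5 CPM in WT 3dpMI, against 392 CPM in Q150X homeostasis and 295 CPM in WT homeostasis. Its intervals were separated in the same way. Vascular endothelium held 1 UMI of Col4a3 in Q150X 3dpMI and 10 in WT 3dpMI, against 14 in Q150X homeostasis and 5 in WT homeostasis. Immune nuclei held 1.33 CPM in Q150X 3dpMI and 3.01 CPM in WT 3dpMI, against 53.0 CPM in Q150X homeostasis and 41.6 CPM in WT homeostasis, higher in both uninjured libraries. The part of free RNA in the fibroblast and endocardial levels was not tested.

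Col4a5, whose chain joins either kind of rarer trimer, was highest in cardiomyocytes in all 4 libraries. There it measured 461 CPM (438 to 485) in Q150X 3dpMI and 324 CPM (312 to 337) in WT 3dpMI, against 329.5 CPM (309 to 351) in Q150X homeostasis and 352 CPM (331 to 373) in WT homeostasis. Fibroblasts held 134 CPM in Q150X 3dpMI and 104 CPM in WT 3dpMI, against 146 CPM in Q150X homeostasis and 156 CPM in WT homeostasis, and immune nuclei 11.5 CPM in Q150X 3dpMI and 9.49 CPM in WT 3dpMI, against 53.0 CPM in Q150X homeostasis and 72.8 CPM in WT homeostasis. Cardiomyocytes overlapped the next class, smooth muscle, in WT homeostasis alone. Col4a6, the partner of Col4a5, was sparse, with 701 UMIs over all kept nuclei. Fibroblasts held Col4a6 at 22.7 CPM in Q150X 3dpMI and 17.2 CPM in WT 3dpMI, against 38.5 CPM in Q150X homeostasis and 44.4 CPM in WT homeostasis. Smooth muscle, with 50 nuclei or more in the WT libraries alone, held 83.5 CPM in WT 3dpMI from 12 UMIs and 71.0 CPM in WT homeostasis from 5 UMIs.

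Col15a1 belonged to fibroblasts in uninjured hearts and to fibroblasts and vessels after infarction. In fibroblasts it measured 689.8 CPM (674 to 706) in Q150X 3dpMI and 649 CPM (630.4 to 667) in WT 3dpMI, against 915 CPM (882 to 948) in Q150X homeostasis and 759 CPM (713 to 808) in WT homeostasis. In vascular endothelium it measured 708 CPM (681 to 736) in Q150X 3dpMI and 572 CPM (549.7 to 595) in WT 3dpMI, against 153 CPM (122 to 189) in Q150X homeostasis and 68.8 CPM (48.7 to 94.4) in WT homeostasis. After infarction endothelium thus stood near fibroblasts, overlapping them in Q150X 3dpMI and lying below them in WT 3dpMI. Pericytes held 455 CPM in Q150X 3dpMI and 346 CPM in WT 3dpMI, against 101 CPM in Q150X homeostasis and 72.1 CPM in WT homeostasis, and immune nuclei 115 CPM in Q150X 3dpMI and 98.3 CPM in WT 3dpMI, against 224 CPM in Q150X homeostasis and 72.8 CPM in WT homeostasis. The uninjured endothelial and pericyte levels did not lie above the immune ones beyond counting error, whereas the levels after infarction did.

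Nid1, the main nidogen, had its levels in fibroblasts split by infarction. There it measured 294 CPM (284 to 305) in Q150X 3dpMI and 346 CPM (333 to 359.7) in WT 3dpMI, against 658 CPM (631 to 686) in Q150X homeostasis and 615 CPM (574 to 659) in WT homeostasis. Pericytes held 385 CPM in Q150X 3dpMI and 361 CPM in WT 3dpMI, against 354 CPM in Q150X homeostasis and 212 CPM in WT homeostasis, and vascular endothelium 316 CPM in Q150X 3dpMI and 317 CPM in WT 3dpMI, against 219 CPM in Q150X homeostasis and 248 CPM in WT homeostasis. Pericytes were its highest class after infarction and fibroblasts its highest class in uninjured hearts, with pericytes overlapping fibroblasts in WT 3dpMI. Nid2, the second nidogen, was highest in vascular endothelium, at 96.7 CPM in Q150X 3dpMI and 75.6 CPM in WT 3dpMI, against 53.4 CPM in Q150X homeostasis and 57.9 CPM in WT homeostasis, and its interval overlapped that of the next class in each library. Fibroblasts held Nid2 at 23.3 CPM in Q150X 3dpMI and 32.5 CPM in WT 3dpMI, against 50 CPM in Q150X homeostasis and 31.6 CPM in WT homeostasis.

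**Figure D2:**
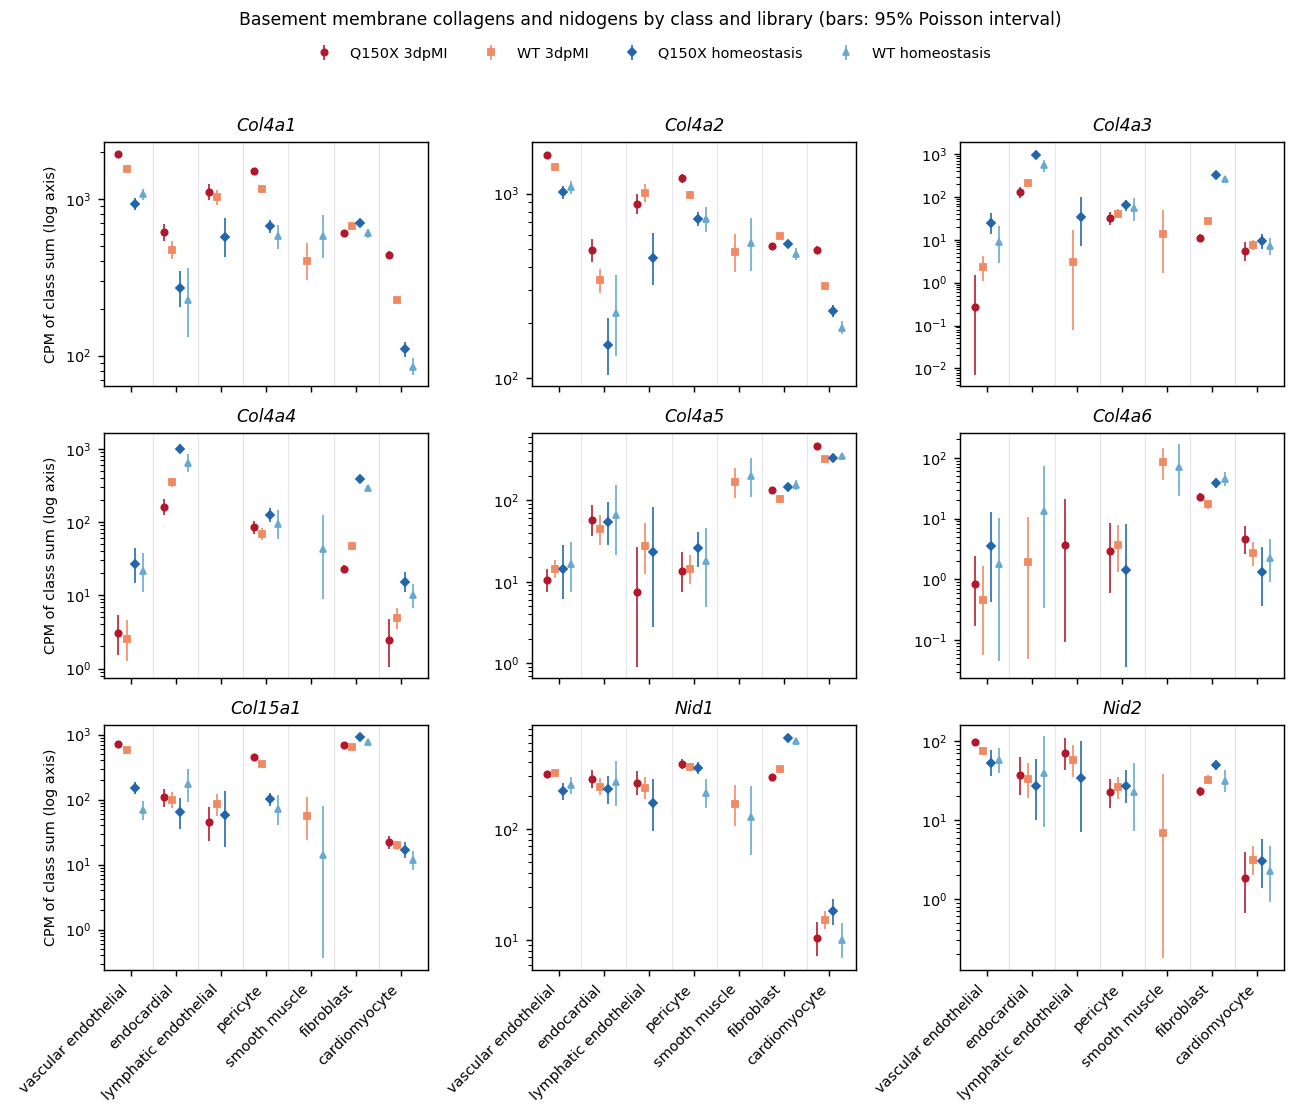
CPM of class sums (y axis, log scale) by class (x axis) for each gene, with points for the 4 libraries and bars for 95% counting intervals; classes under 50 nuclei and values of 0 UMIs are not drawn. Col4a3 and Col4a4 lie lower in fibroblasts of Q150X 3dpMI and WT 3dpMI than of both uninjured libraries, and Col15a1 lies higher in endothelium and pericytes.

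After infarction the members differed by class: Col15a1 and Col4a1 were higher in vessels, and Col4a3 and Col4a4 lower in fibroblasts and endocardium, in both genotypes. The median log2 ratio of all genes was not 0 in these comparisons, reaching 0.38 in WT cardiomyocytes and 0.27 in Q150X and 0.32 in WT fibroblasts. Scaling used another median, over genes that met the UMI minimum in each library, and kept all 30 ratios past 2-fold past it. The medians given here were not used for scaling. Relative to them, Col4a1 in Q150X vascular endothelium lay inside 2-fold, as given below.

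In vascular endothelium of Q150X, 2 of 5 members measured were past 2-fold higher, where 19.4% of all genes were, and 0 were past 2-fold lower, where 4.52% were. In vascular endothelium of WT, 1 of 6 members measured was past 2-fold higher, where 19.4% of all genes were, and 0 were past 2-fold lower, where 2.19% were. The ratio of Col15a1, 3dpMI over homeostasis, was 4.62 (3.73 to 5.80) in Q150X and 8.32 (6.04 to 11.8) in WT. That of Col4a1 was 2.06 (1.89 to 2.26) in Q150X and 1.45 (1.33 to 1.58) in WT, or 0.78 in Q150X and 0.27 in WT as a log2 ratio relative to the median gene. Weighting nuclei equally put Col4a1 in Q150X inside 2-fold, at 1.86. Nid2 stood at 1.81 (1.25 to 2.72) in Q150X and 1.31 (0.907 to 1.94) in WT, and Col4a2 at 1.60 (1.47 to 1.75) in Q150X and 1.29 (1.19 to 1.41) in WT. In this class the 10 fibroblast markers, of which at most 1 was at 0, summed to 345 CPM in Q150X 3dpMI and 461 CPM in WT 3dpMI, against 810.2 CPM in Q150X homeostasis and 337 CPM in WT homeostasis. Cardiomyocyte markers, none of them at 0, summed in this class to 925 CPM in Q150X 3dpMI and 4324 CPM in WT 3dpMI, against 7651 CPM in Q150X homeostasis and 3391 CPM in WT homeostasis. The part of both in these ratios was not tested.

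Pericytes shared the higher Col15a1 and Col4a1. In Q150X pericytes, 2 of 6 members measured were past 2-fold higher, where 10.5% of all genes were, and 1 was past 2-fold lower, where 3.71% were. In WT pericytes, 2 of 6 members measured were past 2-fold higher, where 17.1% of all genes were, and 0 were past 2-fold lower, where 2.67% were. Col15a1 stood at 4.52 (3.51 to 5.90) in Q150X and 4.80 (2.93 to 8.46) in WT. Which nuclei were summed mattered here: the Q150X ratio was 1.92 with no doublets removed, 1.75 at clustering resolution 2, and 2.09 at a minimum of 1000 UMIs per nucleus. The WT ratio was 2.87 at resolution 2, 2.93 with nuclei weighted equally and 7.98 with the members among the clustering genes. Col4a1 stood at 2.24 (2.02 to 2.49) in Q150X and 2.03 (1.69 to 2.44) in WT, and at resolution 2 at 1.46 in Q150X and 1.54 in WT. The gene past 2-fold lower in Q150X was Col4a3, at 0.496 (0.307 to 0.795), or 0.654 at resolution 2, 0.579 with nuclei weighted equally and 0.320 with no doublets removed. In pericytes the 10 fibroblast markers, of which at most 1 was at 0, summed to 1875 CPM in Q150X 3dpMI and 1936 CPM in WT 3dpMI, against 2632 CPM in Q150X homeostasis and 2042 CPM in WT homeostasis. Cardiomyocyte markers, at most 1 of them at 0, summed there to 1349.5 CPM in Q150X 3dpMI and 3539 CPM in WT 3dpMI, against 5348 CPM in Q150X homeostasis and 3341 CPM in WT homeostasis. The part of both in the pericyte ratios was not tested.

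Endocardium showed ratios in both directions. In Q150X endocardium, 2 of 6 members measured were past 2-fold higher, where 8.2% of all genes were, and 2 were past 2-fold lower, where 4.7% were. In WT endocardium, 1 of 6 members measured was past 2-fold higher, where 12.5% of all genes were, and 1 was past 2-fold lower, where 3.55% were. Col4a3 stood at 0.136 (0.0982 to 0.186) in Q150X and 0.393 (0.273 to 0.577) in WT, and Col4a4 at 0.159 (0.119 to 0.211) in Q150X and 0.540 (0.392 to 0.756) in WT. Col4a1 stood at 2.28 (1.71 to 3.08) in Q150X and 2.10 (1.29 to 3.67) in WT, but at 1.59 in Q150X and 1.82 in WT with the members among the clustering genes. Col4a2 stood at 3.27 (2.25 to 4.88) in Q150X and 1.504 (0.913 to 2.64) in WT, and at 1.81 in Q150X with nuclei weighted equally. The uninjured WT sum rested on 94 nuclei. Fibroblast markers summed in endocardium to 1070 CPM in Q150X 3dpMI and 999 CPM in WT 3dpMI, against 1483 CPM in Q150X homeostasis and 1788 CPM in WT homeostasis. Cardiomyocyte markers summed there to 1017 CPM in Q150X 3dpMI and 4116 CPM in WT 3dpMI, against 4350 CPM in Q150X homeostasis and 4517 CPM in WT homeostasis. At most 1 marker of each list was at 0, and the part of both in the endocardial ratios was not tested. In Q150X lymphatic endothelium, 0 of 3 members measured were past 2-fold higher, where 10.4% of all genes were, and 0 were past 2-fold lower, where 6.35% were, and in WT smooth muscle, 0 of 2 members measured were past 2-fold higher, where 4.56% of all genes were, and 0 were past 2-fold lower, where 5.41% were.

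Cardiomyocytes, each wrapped in a basement membrane of its own, had more Col4a1 after infarction. It measured 442 CPM (419 to 465) in Q150X 3dpMI and 226 CPM (216 to 237) in WT 3dpMI, against 110.3 CPM (98.7 to 123) in Q150X homeostasis and 85.1 CPM (75.1 to 96.0) in WT homeostasis, a ratio of 4.01 (3.55 to 4.53) in Q150X and 2.66 (2.33 to 3.04) in WT. In Q150X cardiomyocytes, 2 of 6 members measured were past 2-fold higher, where 13.8% of all genes were, and 1 was past 2-fold lower, where 4.89% were. In WT cardiomyocytes, 1 of 7 members measured was past 2-fold higher, where 17.6% of all genes were, and 1 was past 2-fold lower, where 1.96% were. Col4a2 stood at 2.13 (1.95 to 2.33) in Q150X and 1.68 (1.54 to 1.84) in WT, and at 1.94 in Q150X with no doublets removed. In cardiomyocytes the 10 fibroblast markers summed to 115 CPM in Q150X 3dpMI and 152 CPM in WT 3dpMI, against 223 CPM in Q150X homeostasis and 132 CPM in WT homeostasis, and the 10 vascular endothelial markers to 93.3 CPM in Q150X 3dpMI and 165 CPM in WT 3dpMI, against 219.9 CPM in Q150X homeostasis and 111 CPM in WT homeostasis. Pericyte markers summed to 102 CPM in Q150X 3dpMI and 235 CPM in WT 3dpMI, against 312 CPM in Q150X homeostasis and 241 CPM in WT homeostasis. At most 1 marker of each list was at 0, and their part in the ratios was not tested. Immune nuclei held Col4a1 at 258 CPM in Q150X 3dpMI and 274 CPM in WT 3dpMI. Their uninjured levels were 350.4 CPM in Q150X homeostasis and 166 CPM in WT homeostasis. Cardiomyocytes lay above immune nuclei in Q150X 3dpMI alone, and the part of free RNA was not tested. Col4a4, past 2-fold lower in both genotypes, rested on 8 UMIs in Q150X 3dpMI and 38 in WT 3dpMI, at a ratio of 0.159 (0.0649 to 0.340) in Q150X and 0.491 (0.298 to 0.817) in WT. With no doublets removed that ratio was 0.0884 in Q150X and 0.575 in WT.

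Most cardiomyocytes of Q150X 3dpMI lay in another cluster than those of the other 3 libraries. The cluster with Xirp2, Ankrd1 and Nppb among its leading genes, named stressed from its markers, made up the following shares of cardiomyocytes: 64.0% in Q150X 3dpMI and 32.5% in WT 3dpMI, against 1.08% in Q150X homeostasis and 1.09% in WT homeostasis. Its Col4a1 level was 547 CPM in Q150X 3dpMI and 441 CPM in WT 3dpMI, and that of the remaining cardiomyocytes 188 CPM in Q150X 3dpMI and 126 CPM in WT 3dpMI, against 107 CPM in Q150X homeostasis and 84.4 CPM in WT homeostasis. Within the remaining cardiomyocytes Col4a1 stood at 1.76 (1.46 to 2.12) in Q150X and 1.49 (1.29 to 1.73) in WT, inside 2-fold. Col4a5 was also higher in stressed nuclei, at 510.4 CPM in Q150X 3dpMI and 442 CPM in WT 3dpMI, where the remaining cardiomyocytes held 343 CPM in Q150X 3dpMI and 269 CPM in WT 3dpMI.

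Fibroblasts after infarction held far less Col4a3 and Col4a4 in both genotypes, and less Nid1. In Q150X fibroblasts, 0 of 9 members measured were past 2-fold higher, where 19.0% of all genes were, and 4 were past 2-fold lower, where 6.68% were. In WT fibroblasts, 0 of 9 members measured were past 2-fold higher, where 22.3% of all genes were, and 3 were past 2-fold lower, where 3.68% were. Col4a3 stood at 0.0343 (0.0280 to 0.0417) in Q150X and 0.105 (0.0880 to 0.126) in WT, and Col4a4 at 0.0591 (0.0512 to 0.0680) in Q150X and 0.158 (0.136 to 0.183) in WT, and both stayed past 2-fold in both genotypes under each of the other settings run on the whole class. Nid1 stood at 0.447 (0.423 to 0.473) in Q150X and 0.563 (0.520 to 0.609) in WT, and its Q150X ratio was 0.509 at a minimum of 1000 UMIs per nucleus and 0.501 with nuclei weighted equally. Nid2 stood at 0.465 (0.380 to 0.571) in Q150X and 1.03 (0.739 to 1.46) in WT, with a Q150X ratio of 0.529 at that minimum and 0.548 with equal weights. Col4a6 stood at 0.589 (0.472 to 0.738) in Q150X and 0.387 (0.283 to 0.537) in WT. Col4a1, Col4a2, Col4a5 and Col15a1 lay inside 2-fold in both genotypes. In fibroblasts the 10 cardiomyocyte markers, none at 0, summed to 1021 CPM in Q150X 3dpMI and 2041 CPM in WT 3dpMI, against 3988 CPM in Q150X homeostasis and 2835 CPM in WT homeostasis, and their part was not tested.

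**Figure D3:**
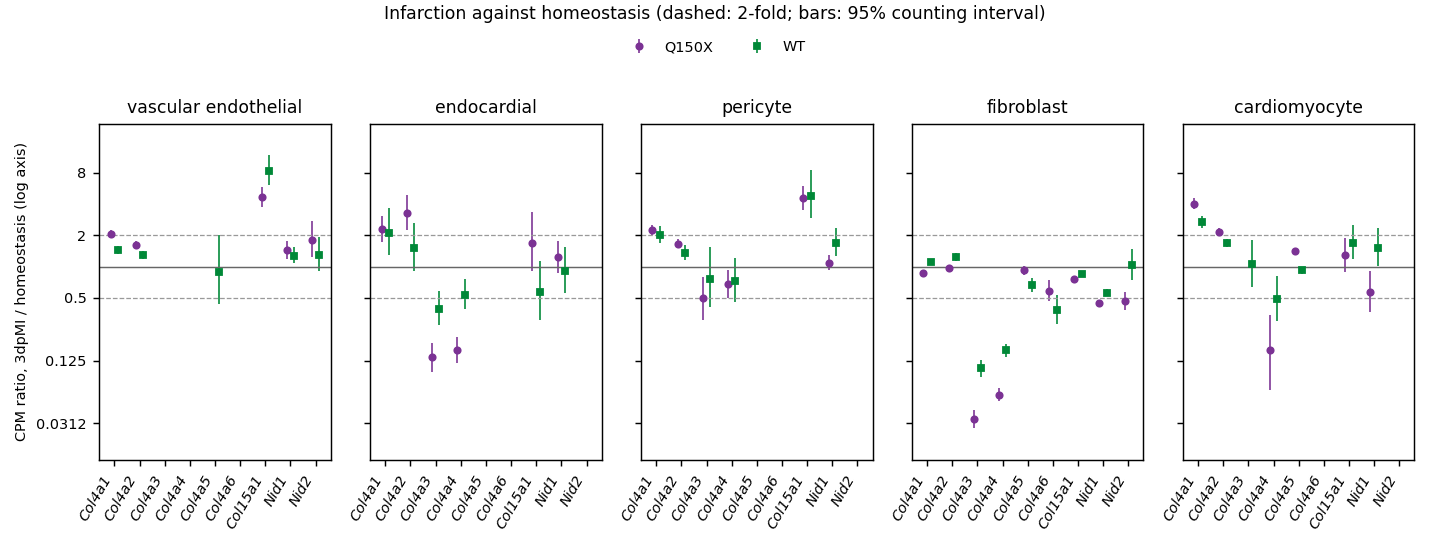
Ratio of CPM, 3dpMI over homeostasis (y axis, log scale), for each gene (x axis) by class, with Q150X and WT side by side and bars for 95% counting intervals. Col4a3 and Col4a4 lie below 1 in fibroblasts in both genotypes, and Col15a1 lies above 1 in endothelium and pericytes.

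Fibroblasts before and after infarction fell into different clusters. An activated cluster, with Tnc, Ltbp2, Kif26b and Cthrc1, held 945 nuclei in Q150X 3dpMI and 613 in WT 3dpMI, against 11 in Q150X homeostasis and 3 in WT homeostasis. A cluster with Aldh1a2 and Col24a1 held 624 nuclei in Q150X 3dpMI and 448 in WT 3dpMI, against 2 in Q150X homeostasis and 0 in WT homeostasis. The adventitial cluster, with Pi16 and Sema3c, held 136 nuclei in Q150X 3dpMI and 288 in WT 3dpMI, against 1133 in Q150X homeostasis and 779 in WT homeostasis, and a cluster with Lvrn and Gsta3 held 160 nuclei in Q150X 3dpMI and 470 in WT 3dpMI, against 1716 in Q150X homeostasis and 653 in WT homeostasis. Most fibroblasts after infarction thus lay in the first pair of clusters, and most uninjured ones in the second pair.

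Lower Col4a3 was seen between clusters and also inside those present in both conditions. Activated nuclei held 4.25 CPM in Q150X 3dpMI and 5.37 CPM in WT 3dpMI, and adventitial nuclei 51.3 CPM in Q150X 3dpMI and 80.5 CPM in WT 3dpMI, against 255 CPM in Q150X homeostasis and 208 CPM in WT homeostasis. Within the adventitial cluster the ratio of Col4a3 was 0.201 (0.127 to 0.304) in Q150X and 0.388 (0.283 to 0.525) in WT, and within the Lvrn and Gsta3 cluster 0.176 (0.114 to 0.260) in Q150X and 0.232 (0.174 to 0.307) in WT. In the adventitial cluster Col4a4 stood at 0.429 (0.325 to 0.559) in Q150X and 0.527 (0.410 to 0.675) in WT, and in the Lvrn and Gsta3 cluster at 0.235 (0.168 to 0.320) in Q150X and 0.349 (0.276 to 0.441) in WT. Nid1 behaved otherwise, with ratios near 1 inside those clusters. In the adventitial cluster it stood at 0.926 (0.810 to 1.06) in Q150X and 0.913 (0.795 to 1.05) in WT, and in the Lvrn and Gsta3 cluster at 0.922 (0.798 to 1.06) in Q150X and 0.864 (0.757 to 0.987) in WT. Nid2, past 2-fold lower in Q150X fibroblasts as a class, stood in the adventitial cluster at 1.09 (0.632 to 1.83) in Q150X and 1.78 (0.996 to 3.27) in WT, and in the Lvrn and Gsta3 cluster at 0.908 (0.525 to 1.49) in Q150X and 1.13 (0.648 to 2.02) in WT. Its Q150X ratio lay above 1 inside the adventitial cluster, where that of the class lay below it, and the interval in each of these clusters spanned 1 in Q150X. Activated nuclei held Nid1 at 216 CPM in Q150X 3dpMI and 240.2 CPM in WT 3dpMI, below the adventitial levels of 649 CPM in Q150X 3dpMI and 544 CPM in WT 3dpMI. Col15a1 had the reverse order after infarction, at 853 CPM in Q150X 3dpMI and 872 CPM in WT 3dpMI in activated nuclei and 352 CPM in Q150X 3dpMI and 432 CPM in WT 3dpMI in adventitial nuclei, and within the adventitial cluster its ratio with infarction was 0.382 (0.323 to 0.451) in Q150X and 0.553 (0.481 to 0.634) in WT.

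Endothelial clusters separated the members too. The angiogenic cluster, with Kit among its genes, held 347 nuclei in Q150X 3dpMI and 277 in WT 3dpMI, against 9 in Q150X homeostasis and 3 in WT homeostasis. It had the highest Col4a1 of the endothelial clusters after infarction, at 2344 CPM in Q150X 3dpMI and 2199 CPM in WT 3dpMI, and the highest Nid2, at 146 CPM in Q150X 3dpMI and 162 CPM in WT 3dpMI. Arterial nuclei had the lowest Col15a1, at 161 CPM in Q150X 3dpMI and 170.4 CPM in WT 3dpMI, where venous nuclei held 950.4 CPM in Q150X 3dpMI and 706 CPM in WT 3dpMI. The higher Col15a1 after infarction was seen inside the capillary cluster, at 3.33 (2.49 to 4.55) in Q150X and 6.40 (4.33 to 9.87) in WT, and inside the venous cluster, at 8.20 (5.57 to 12.6) in Q150X and 7.94 (3.84 to 19.8) in WT. In capillary nuclei Col4a1 stood at 1.57 (1.40 to 1.76) in Q150X and 1.29 (1.18 to 1.43) in WT, and in venous nuclei at 2.48 (2.08 to 2.97) in Q150X and 1.84 (1.39 to 2.48) in WT.

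**Figure D4:**
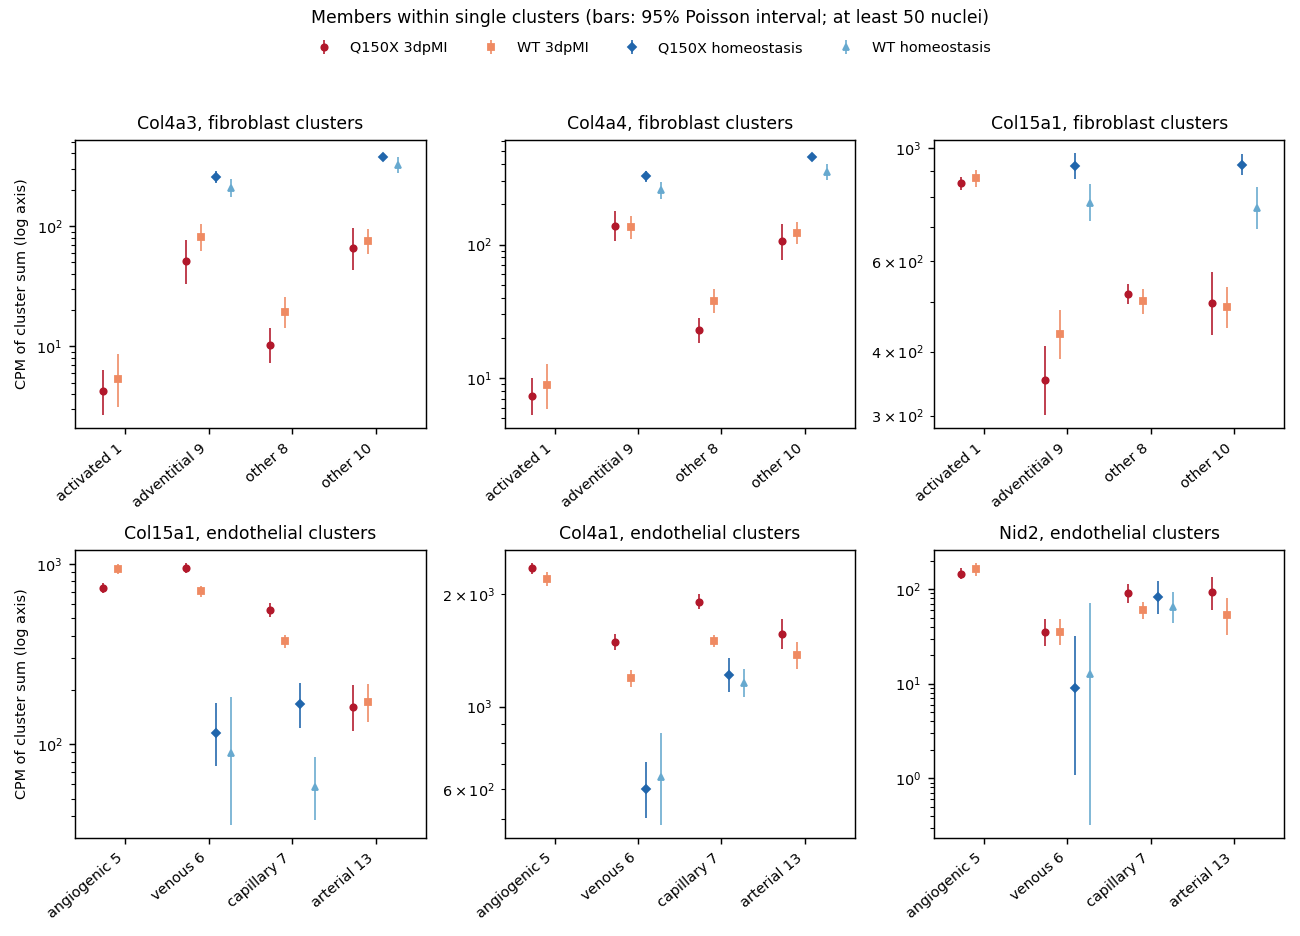
CPM of cluster sums (y axis, log scale) by cluster (x axis) for members in fibroblast and endothelial clusters, with points for libraries with at least 50 nuclei in the cluster and bars for 95% counting intervals. Within the adventitial cluster Col4a3 lies lower in Q150X 3dpMI and WT 3dpMI than in both uninjured libraries.

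Between genotypes after infarction, Col4a3 and Col4a4 were lower in Q150X fibroblasts, and Col4a4 in Q150X endocardium. In fibroblasts, 0 of 9 members measured were past 2-fold higher, where 1.16% of all genes were, and 2 were past 2-fold lower, where 1.63% were. The ratio, Q150X over WT, was 0.413 (0.324 to 0.522) for Col4a3 and 0.499 (0.420 to 0.590) for Col4a4, and that of Col4a4 was 0.507 at resolution 2. Inside single clusters Col4a3 stood at 0.533 (0.340 to 0.830) in the Aldh1a2 and Col24a1 cluster, 0.637 (0.380 to 1.04) in the adventitial cluster and 0.879 (0.538 to 1.40) in the Lvrn and Gsta3 cluster. Col4a4 stood at 0.5997 (0.442 to 0.812), 1.03 (0.742 to 1.42) and 0.869 (0.595 to 1.25) in the same clusters. Activated nuclei as a share of fibroblasts were 50.6% in Q150X 3dpMI and 33.2% in WT 3dpMI, against 0.373% in Q150X homeostasis and 0.203% in WT homeostasis, and their part in the class ratios was not tested. In endocardium, 0 of 6 members measured were past 2-fold higher, where 1.29% of all genes were, and 1 was past 2-fold lower, where 1.59% were. That gene was Col4a4, at 0.459 (0.340 to 0.614), and Col4a3 stood at 0.5998 (0.422 to 0.843).

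In the other classes no member was past 2-fold between genotypes after infarction. In vascular endothelium, 0 of 6 members measured were past 2-fold higher, where 1.89% of all genes were, and 0 were past 2-fold lower, where 2.01% were. In pericytes, 0 of 7 members measured were past 2-fold higher, where 1.02% of all genes were, and 0 were past 2-fold lower, where 2.26% were. In cardiomyocytes, 0 of 6 members measured were past 2-fold higher, where 2.59% of all genes were, and 0 were past 2-fold lower, where 2.97% were. In lymphatic endothelium, 0 of 3 members measured were past 2-fold higher, where 0.903% of all genes were, and 0 were past 2-fold lower, where 1.66% were. Col4a1 in cardiomyocytes came closest, at 1.95 (1.82 to 2.10), but stood at 1.24 (1.14 to 1.35) in stressed nuclei and 1.49 (1.26 to 1.76) in the remaining ones. Col4a1 stood at 1.24 (1.20 to 1.28) in vascular endothelium and 1.29 (1.20 to 1.38) in pericytes. Col15a1 differed by endothelial cluster, at 0.786 (0.719 to 0.860) in angiogenic and 1.497 (1.33 to 1.69) in capillary nuclei.

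**Figure D5:**
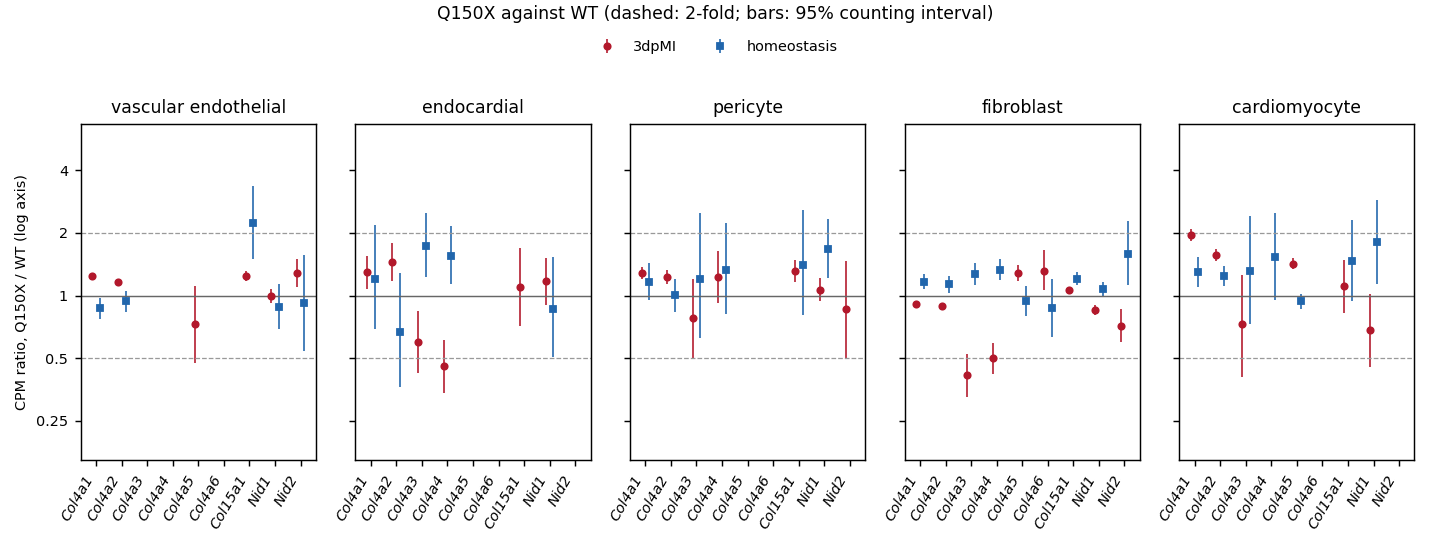
Ratio of CPM, Q150X over WT (y axis, log scale), for each gene (x axis) by class, after infarction and in uninjured hearts, with bars for 95% counting intervals. Col4a3 and Col4a4 in fibroblasts lie below 1 after infarction and above 1 in uninjured hearts.

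In uninjured hearts Col15a1 in vascular endothelium was the member past 2-fold between genotypes. In vascular endothelium, 1 of 5 members measured was past 2-fold higher, where 4.7% of all genes were, and 0 were past 2-fold lower, where 1.04% were. The ratio was 2.23 (1.504 to 3.35), from 86 UMIs in Q150X homeostasis and 38 in WT homeostasis, and 2.87 (1.75 to 4.81) in capillary nuclei. At a minimum of 1000 UMIs per nucleus it had no value. The fibroblast and cardiomyocyte marker sums in this class, given above, were also higher in Q150X homeostasis, as was the Col15a1 level of immune nuclei, and their part was not tested. In fibroblasts, 0 of 9 members measured were past 2-fold higher, where 3.28% of all genes were, and 0 were past 2-fold lower, where 0.362% were. In cardiomyocytes, 0 of 7 members measured were past 2-fold higher, where 2.83% of all genes were, and 0 were past 2-fold lower, where 0.416% were. In pericytes, 0 of 6 members measured were past 2-fold higher, where 4.23% of all genes were, and 0 were past 2-fold lower, where 3.09% were. In endocardium, 0 of 5 members measured were past 2-fold higher, where 3.14% of all genes were, and 0 were past 2-fold lower, where 1.82% were. Col4a3 there stood at 1.73 (1.23 to 2.48) and Col4a4 at 1.55 (1.14 to 2.16), inside 2-fold and above 1.

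Other basement membrane genes gave a setting for these values. With infarction, of the genes of collagen maturation measured in Q150X fibroblasts 9 of 16 were past 2-fold higher, where 19.0% of all genes were, and 0 past 2-fold lower, where 6.68% were, at a median log2 ratio of 1.09 beside 0.27 over all genes. In WT fibroblasts 10 of 16 were past 2-fold higher, where 22.3% of all genes were, and 0 past 2-fold lower, where 3.68% were, at a median log2 ratio of 1.36 beside 0.32 over all genes. Over the other classes, the median of this list ran from -0.37 in Q150X endocardium to 1.10 in WT vascular endothelium. In the former 1 of 7 was past 2-fold higher, where 8.2% of all genes were, and 0 lower, where 4.7% were. In the latter 8 of 15 were past 2-fold higher, where 19.4% of all genes were, and 0 lower, where 2.19% were. In fibroblasts Fkbp10, a collagen chaperone, measured 54.1 CPM in Q150X 3dpMI and 49.95 CPM in WT 3dpMI. Its levels in uninjured fibroblasts were 15.5 CPM in Q150X homeostasis and 13.5 CPM in WT homeostasis. Of the laminins measured in Q150X fibroblasts 0 of 7 were past 2-fold higher, where 19.0% of all genes were, and 2 past 2-fold lower, where 6.68% were, at a median log2 ratio of -0.70 beside 0.27 over all genes, and in WT fibroblasts 1 of 6 was past 2-fold higher, where 22.3% of all genes were, and 2 past 2-fold lower, where 3.68% were, at a median log2 ratio of -0.54 beside 0.32 over all genes. Over the other classes, the median of this list ran from -0.57 in WT smooth muscle to 0.66 in WT cardiomyocytes. In the former 0 of 2 were past 2-fold higher, where 4.56% of all genes were, and 0 lower, where 5.41% were. In the latter 0 of 9 were past 2-fold higher, where 17.6% of all genes were, and 0 lower, where 1.96% were. In fibroblasts Lama2, the laminin chain of muscle, measured 1432 CPM in Q150X 3dpMI and 1668 CPM in WT 3dpMI. Its levels in uninjured fibroblasts were 4338 CPM in Q150X homeostasis and 4129.6 CPM in WT homeostasis. Of the proteoglycans and linkers measured in Q150X vascular endothelium 4 of 10 were past 2-fold higher, where 19.4% of all genes were, and 1 past 2-fold lower, where 4.52% were, at a median log2 ratio of 0.52 beside 0.26 over all genes. In WT vascular endothelium 5 of 10 were past 2-fold higher, where 19.4% of all genes were, and 0 past 2-fold lower, where 2.19% were, at a median log2 ratio of 1.08 beside 0.27 over all genes. Over the other classes, the median of this list ran from -0.11 in WT smooth muscle to 2.72 in Q150X lymphatic endothelium. In the former 0 of 4 were past 2-fold higher, where 4.56% of all genes were, and 0 lower, where 5.41% were. In the latter 4 of 5 were past 2-fold higher, where 10.4% of all genes were, and 1 lower, where 6.35% were. In vascular endothelium Col18a1, the collagen most closely related to Col15a1, measured 332 CPM in Q150X 3dpMI and 219 CPM in WT 3dpMI. Its levels in uninjured vascular endothelium were 16.0 CPM in Q150X homeostasis and 10.9 CPM in WT homeostasis. The ratio there was 20.7 (10.9 to 45.4) in Q150X and 20.2 (9.23 to 55.1) in WT. Of the receptors measured in Q150X cardiomyocytes 4 of 8 were past 2-fold higher, where 13.8% of all genes were, and 0 past 2-fold lower, where 4.89% were, at a median log2 ratio of 1.35 beside 0.19 over all genes. In WT cardiomyocytes 6 of 9 were past 2-fold higher, where 17.6% of all genes were, and 0 past 2-fold lower, where 1.96% were, at a median log2 ratio of 1.13 beside 0.38 over all genes. Over the other classes, the median of this list ran from -0.29 in Q150X fibroblasts to 1.05 in WT endocardium. In the former 1 of 9 was past 2-fold higher, where 19.0% of all genes were, and 0 lower, where 6.68% were. In the latter 3 of 5 were past 2-fold higher, where 12.5% of all genes were, and 0 lower, where 3.55% were. In cardiomyocytes Itga7, the laminin-binding integrin of muscle, stood at 4.19 (3.31 to 5.36) in Q150X and 2.83 (2.24 to 3.61) in WT. Between genotypes after infarction no list had more than 1 gene past 2-fold higher or 2 past 2-fold lower in any class. The 2 lower were of 11 proteoglycans and linkers in cardiomyocytes, where 2.97% of all genes were. Lists with 1 lower had 7 to 14 measured, where 1.59% to 2.97% of all genes were. The 1 higher was of 5 proteoglycans and linkers in lymphatic endothelium (0.903% of all genes), 13 in fibroblasts (1.16%) and 11 in cardiomyocytes (2.59%).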

How the data were processed

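Nuclei were profiled with the 10x Genomics 5' kit, per the labels' protocols. The deposited values are raw UMI counts; per the file headers the authors used Cell Ranger 7.1.0, and no normalisation was applied. The submitters' processing notes also name Scanpy and build GRCm39. The settings by which the deposited barcodes were chosen are not given in the sources used here. Genotype and treatment labels gave the groups.

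Nuclei with under 500 UMIs, under 300 genes or over 10% mitochondrial UMIs were removed. Doublets were called per library with Scrublet in Scanpy 1.11.5; where it marked under 0.5% of over 5000 nuclei, nuclei were removed from the top score down, at 0.8% per 1000 nuclei. Doublets removed came to 756 nuclei in Q150X 3dpMI, 670 in WT 3dpMI, 336 in Q150X homeostasis and 214 in WT homeostasis, leaving 26152 of 28216 nuclei. The libraries were clustered together (2000 variable genes without the members and 4 lists of basement membrane genes, 30 principal components, 15 neighbours, Leiden resolution 1, igraph 0.11.9), and the 25 clusters were named from marker lists. The remaining software was matplotlib 3.10.9, scikit-learn 1.9.0, anndata 0.12.19, pandas 2.3.3, scipy 1.17.1, numpy 2.4.6 and Python 3.11.15.

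Sums over the nuclei of a class were given as CPM with exact Poisson intervals; ratios have exact conditional binomial intervals and shares exact Clopper-Pearson intervals, all at 95%. The ratio script was tested on simulated data. Class sums needed 50 nuclei and ratios 50 UMIs over both libraries. List genes at 0 in the library below the line of a ratio were set there to a floor of 3 counts. Those at 0 in the library above the line were not. All 9 members were described, with up to 2 genes at each end of a list; genes of like pattern were the 3 with the highest Pearson's r on log CPM, with a pseudocount of 1 CPM. The members and lists were chosen with earlier results of these data known. Alternatives were 1000 UMIs per nucleus, no doublet removal, members among the clustering genes, resolution 2, nuclei weighted equally, scaling by the median ratio, no UMI minimum and a 1.5-fold threshold. The median ratio for scaling was taken over genes with 50 UMIs or more in each library. Sums of single clusters were chosen after seeing the data. So was an estimate of carried-over RNA from marker sums, which for Col15a1 from fibroblasts in pericytes of Q150X homeostasis gave 344 CPM where 101 CPM was measured, and it was not used.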

Additional observations from a re-analysis of the deposited data

Results flagged for a closer look

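Some ratios lay on opposite sides of 1 in the 2 settings, with counting intervals on either side, so that the quotient of the ratios differs from 1; with 1 library per group the difference was not tested. For the genotype ratio, Q150X over WT, the quotient after infarction against uninjured hearts was 1.42 (1.24 after infarction and 0.868 in uninjured hearts) for Col4a1 in vascular endothelium, 0.346 (0.5998 after infarction and 1.73 in uninjured hearts) for Col4a3 and 0.295 (0.459 after infarction and 1.55 in uninjured hearts) for Col4a4 in endocardium. In fibroblasts it was 0.780 (0.909 after infarction and 1.17 in uninjured hearts) for Col4a1, 0.785 (0.889 after infarction and 1.13 in uninjured hearts) for Col4a2, 0.326 (0.413 after infarction and 1.27 in uninjured hearts) for Col4a3, 0.375 (0.499 after infarction and 1.33 in uninjured hearts) for Col4a4 and 0.452 (0.716 after infarction and 1.58 in uninjured hearts) for Nid2. For the ratio of 3dpMI over homeostasis, the quotient of Q150X against WT was 1.52 (1.40 in Q150X and 0.922 in WT) for Col4a5 in cardiomyocytes. It was 0.381 (0.576 in Q150X and 1.51 in WT) for Nid1 in cardiomyocytes. For Col4a1 in fibroblasts (0.865 in Q150X and 1.11 in WT) it is the same quotient, 0.780, as for the genotype ratio, and not a further result. Nid1 in cardiomyocytes measured 10.4 CPM in Q150X 3dpMI and 15.2 CPM in WT 3dpMI, against 18.0 CPM in Q150X homeostasis and 10.0 CPM in WT homeostasis. Immune nuclei lay above it, at 65.3, 65.7, 198 and 135 CPM in the same order, and the part of free RNA was not tested.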

How the results depend on the processing

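No paired analysis was possible because each group had 1 library. Of 140 ratios measured, 30 were past 2-fold, and the shares of all genes past it are given by class above. No such share is given for the changed settings at 2-fold, so their counts are not set against a background. Of the 30, 13 were inside 2-fold under one or more of the other settings run on the whole class. The other 17 were past it wherever they had a value. At a minimum of 1000 UMIs per nucleus 26 of the 30 had one. Between genotypes in uninjured hearts, the 1 ratio past 2-fold higher became 3 with no doublets removed, 2 with the members among the clustering genes, 2 with nuclei weighted equally, 2 with no UMI minimum and 7 at 1.5-fold (10.5% to 13.5% of all genes by class), and the 0 past 2-fold lower became 1 with no UMI minimum. Between genotypes after infarction, the 0 higher became 2 at 1.5-fold (5.08% to 10.7% of all genes) and the 3 lower became 6 with no UMI minimum. With infarction in Q150X, the 8 higher became 5 with no doublets removed, 3 with nuclei weighted equally and 15 at 1.5-fold (18.4% to 33.3%), and the 8 lower became 5 at 1000 UMIs (2 inside 2-fold and 1 with no value) and 5 with nuclei weighted equally. With infarction in WT, the 5 higher became 3 at 1000 UMIs (1 inside 2-fold and 1 with no value) and 10 at 1.5-fold (12.7% to 37.0%), and the 5 lower became 3 at 1000 UMIs (1 inside 2-fold and 1 with no value), 9 with no UMI minimum and 8 at 1.5-fold (4.72% to 16.8%). In sums of single clusters, 27 of 44 comparisons with a class ratio past 2-fold were past it too, and 185 of 221 had the sign of the class. In the adventitial fibroblast cluster alone, the log2 ratio of Col4a4 between genotypes after infarction was 0.040 and that of Nid2 with infarction in Q150X was 0.13, both reversed against the class. Scaling by the median ratio turned the sign of 3 ratios inside 2-fold. The cause was not tested. The uninjured libraries were shallower, which limits the sparse members, Col4a6 and Nid2 most.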
